A study of Homo sapiens with 24 samples.

Results

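The expression of 10 cyclin and cyclin-dependent kinase (CDK) genes was examined by RNA-Seq in triple-negative breast cancer (TNBC) cell lines. The genes were taken by symbol, with earlier results of these data known: CCNB1, CCNB2, CCNA2, CDK1, CCNE1, CCNE2, CCND1, CCND2, CCND3 and CDK6. All 10 were found in each of the 4 deposited tables, among 13397 gene names that the 4 tables share. The series holds 24 libraries in 8 conditions with 3 replicates each. Breast cancer stem-like cells (BCSCs) and non-BCSCs were sorted from wild-type Hs578T and from wild-type HCC70 cells. By the study's methods, BCSCs carried the CD24-CD44+ and ALDH+ markers and non-BCSCs lacked both. MDA-MB-231 cells carried control sgRNA (sgCtrl) or KIF20A sgRNA #1 (KIF20A sg1, labelled KIF20A knockdown), as selected pools and not clones. A second set, also labelled MDA-MB-231, carried the empty control vector (EV) or the KIF20A overexpression vector (KIF20A OE). KIF20A is a kinesin needed for cytokinesis. Each experiment has its own batch number in the labels, so cell line and batch cannot be told apart. The study calls the 3 libraries of a group biological triplicates and does not say how the cultures were separated, so p-values measure the spread between these libraries.

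Cyclins bind and activate CDKs, and the mRNAs of E-, A- and B-type cyclins rise and fall in a fixed order as a cell divides. D-type cyclins with CDK4 or CDK6 respond to growth signals in G1, and E-type cyclins with CDK2 drive entry into S phase. Cyclin A2 acts through S phase and G2, and the B-type cyclins with CDK1 drive entry into mitosis and are destroyed at its end. The genes were therefore read in 4 groups, by the phase in which their products act: G1 (CCND1, CCND2, CCND3, CDK6), G1/S (CCNE1, CCNE2), S/G2 (CCNA2) and G2/M (CCNB1, CCNB2, CDK1).

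Before any result, 1 set of libraries needs a remark. In the libraries labelled KIF20A OE, CD44, which encodes a surface receptor used in the sort of BCSCs, stood at 0.125 to 1.23 CPM (reads scaled to a fixed library total, with no length term), against 523 to 788 CPM with EV. CDKN2A was at 0 in all EV, sgCtrl and KIF20A sg1 libraries and at 276 to 353 CPM in that set. IRS4, an adaptor of insulin signalling, was at 0 with EV and at 1219 to 1750 CPM there. The mesenchymal marker VIM stood at 347 to 776 CPM against 2520 to 2735 CPM with EV. Of 4 mesenchymal markers tested, limma called 3 lower, VIM and CD44 among them, and 1 higher, CDH2 (log2 fold change 4.75). KIF20A itself was at 1348, 269 and 896 CPM against 101, 143 and 124 CPM with EV. These libraries therefore went against the label of 1 shared parental line in several defining genes, and every value of that comparison rests on them. In the other MDA-MB-231 experiment, KIF20A was at 153, 173 and 156 scaled CPM with sgCtrl and at 122, 145 and 91.1 with KIF20A sg1. The log2 fold change of -0.45 in the mean did not pass the test by limma, which no gene passed there. All 3 KIF20A sg1 values lay below all 3 sgCtrl values, where the groups did not overlap for 13.0% of all genes. The study reports the depletion of KIF20A from immunoblots, which measure protein. In the sorted lines, ALDH1A3, an aldehyde dehydrogenase behind the ALDH sort, was higher in Hs578T BCSCs by a log2 fold change of 1.29, and in HCC70 its log2 fold change was 0.17 (adjusted p = 0.18, limma). Of the genes for the sorted surface markers, CD44 differed by 0.05 on the log2 scale for Hs578T and 0.04 for HCC70 and CD24 by -0.05 and -0.31, none called by limma (4 tests, 1 with an unadjusted p under 0.05), while edgeR and DESeq2 called CD24 lower in HCC70. The reads recovered per library numbered 28401938 to 33972268 for Hs578T, 24979865 to 33979610 for HCC70, 41424338 to 51018667 for the sgRNA experiment and 15971297 to 22182293 for the overexpression experiment. Apart from CCND2, the cyclin and CDK genes rested on 119 to 47121 reads per library.

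To show what the B-type cyclins share in sequence, the stretch from 130 to 31 bases before the start site is printed for 4 of the genes, from RefSeq on GRCh38.p14, each 5′ to 3′ on the strand of its gene. The pentamer CCAAT, which the factor NF-Y is known to bind in many G2/M promoters, is in capitals on either strand (ATTGG is its reverse complement). CCNE1 lies at chr19:29811861-29811960 on the plus strand, CCNA2 at chr4:121823914-121824013 on the minus strand, CCNB1 at chr5:69167020-69167119 on the plus strand and CCNB2 at chr15:59105016-59105115 on the plus strand.
CCNE1: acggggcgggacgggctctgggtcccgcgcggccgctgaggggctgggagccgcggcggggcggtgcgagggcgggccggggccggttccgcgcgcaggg
CCNA2: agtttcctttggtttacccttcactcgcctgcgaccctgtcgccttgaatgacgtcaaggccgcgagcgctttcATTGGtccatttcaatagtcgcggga
CCNB1: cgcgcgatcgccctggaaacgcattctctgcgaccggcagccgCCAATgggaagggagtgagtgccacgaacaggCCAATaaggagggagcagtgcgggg
CCNB2: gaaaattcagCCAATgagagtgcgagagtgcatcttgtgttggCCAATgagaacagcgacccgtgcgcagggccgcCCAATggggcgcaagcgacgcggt

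The search covered windows of 300 bases (250 before to 50 after a start site), which the reference table held for 7 of the 10 genes. CCAAT, searched on both strands, began at -87 and -55 in CCNB1, and at -244, -120, -87 and -54 in CCNB2. The first of the 2 CDK1 windows held it at -150 and the second at -78 and -46, and CCNA2 held it once, at -56. Neither the CCNE1 window nor either CDK6 window held a match, and 2 of the 3 CCND3 windows held 1 each. Over 35116 windows of the same length, 34.6% held at least 1 match, 10.8% held at least 2, and 0.980% held a pair on 1 strand whose first bases lay 31 to 34 bases apart, as in CCNB1, CCNB2 and CDK1. TTTGAA, known as an element of cell cycle genes, was found in CCNB2 at -29 and in both CDK1 windows, against 15.2% of all windows. E2F words (TTTGGCGC, TTTCCCGC, TTTGCCGC or TTTCGCGC) were found in both CDK1 windows, which overlap, and in no window of the other 6 genes, against 3.31% of all windows. A match is a description of these letters and not a site.

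In the sorted lines, the G2/M members and CCNA2 were higher in every BCSC library than in any non-BCSC library of the same line, while of the G1 and G1/S members limma called CDK6 alone, lower, in Hs578T. In Hs578T, CCNB1, CCNA2, CDK1 and CCNB2 rose by 1.26- to 1.39-fold in mean TPM and CDK6 fell. In HCC70, CCNB1 rose 1.73-fold and CCNB2 1.43-fold in mean TPM. By limma on log2(TPM + 1), with Benjamini-Hochberg adjustment over all genes tested and a call at an adjusted p under 0.05, 5 of the 9 genes tested were called in Hs578T, 4 higher and 1 lower. Over all 13324 genes tested there, 7.15% were called, 2.90% higher and 4.26% lower. In HCC70, 2 of 9 were called, both higher, where 2.83% of 13218 genes were called, 2.28% higher and 0.552% lower. CCND2 was below the minimum mean of 1 in both lines and was not tested. In bulk samples, more cells in a phase and more RNA per cell cannot be told apart.

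CCNB1 (GRCh38 chr5:69167135-69178245, plus strand) encodes cyclin B1. In Hs578T it was listed at 243, 239 and 226 TPM in the non-BCSC libraries and at 332, 306 and 346 TPM in the BCSC libraries. All 3 BCSC values were above all 3 non-BCSC values, and the log2 fold change was 0.47 (SE 0.06, adjusted p = 0.0034). In HCC70 it was listed at 104, 100.04 and 97.0 TPM in non-BCSCs and at 171, 166 and 183 TPM in BCSCs. The groups were again apart, by a log2 fold change of 0.78 (SE 0.06, adjusted p = 0.0019). The study took CCNB1 from these same libraries and kept it for follow-up after RT-qPCR on sorted cells of both lines. Its direction in these libraries is therefore not independent evidence.

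CCNB2 (chr15:59105126-59125045, plus strand), the second B-type cyclin, stood at 104, 104 and 99.4 TPM in Hs578T non-BCSCs and at 133, 128 and 126 TPM in BCSCs. The groups did not overlap, and the log2 fold change was 0.33 (SE 0.04, adjusted p = 0.0053). In HCC70 the values were 124, 112 and 114 TPM in non-BCSCs and 163, 159 and 180 TPM in BCSCs. Here the log2 fold change was 0.51 (SE 0.07, adjusted p = 0.012). This call was lost when BCSC replicate 1 was left out (adjusted p = 0.064, limma), where the log2 fold change was 0.53.

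CDK1 (chr10:60778331-60794852, plus strand) is the kinase that both B-type cyclins activate. Its values were 149, 146 and 133 TPM in Hs578T non-BCSCs and 186, 182 and 179 TPM in BCSCs, a log2 fold change of 0.35 (SE 0.05, adjusted p = 0.0084). In HCC70 they were 122, 105 and 107 TPM against 136, 132 and 141 TPM. The HCC70 groups did not overlap, but the log2 fold change of 0.29 (SE 0.07) had an adjusted p of 0.066 in limma. Without non-BCSC replicate 1, the highest of its group, the adjusted p was 0.027 with a log2 fold change of 0.36.

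CCNA2 (chr4:121816444-121823883, minus strand) encodes cyclin A2 and shares 254 of its 2748 exon bases with EXOSC9 on the other strand. It stood at 151, 144 and 132 TPM in Hs578T non-BCSCs and at 190, 193 and 189 TPM in BCSCs. The log2 fold change was 0.42 (SE 0.05, adjusted p = 0.0050). In HCC70, values of 102, 85.4 and 86.1 TPM in non-BCSCs were below the 113, 108 and 131 TPM of BCSCs, with a log2 fold change of 0.36 (SE 0.10, adjusted p = 0.082 in limma). With the quasi-likelihood test of edgeR on recovered reads, chosen after seeing the data, 4 members were called in HCC70, CCNA2 and CDK1 being added, where 5.12% of all genes were called. With DESeq2 it was 6, CCND3 and CCNE2 being added as lower, where 8.98% of all genes were called.

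The G1 members did not move as a group. CDK6 (chr7:92604921-92836573, minus strand), a kinase partner of the D-type cyclins, stood at 31.9, 31.3 and 29.5 TPM in Hs578T non-BCSCs and at 24.2, 25.0 and 24.9 TPM in BCSCs. It fell by 0.31 on the log2 scale (SE 0.05, adjusted p = 0.0096), a call that was lost without non-BCSC replicate 2 or without BCSC replicate 1 (adjusted p up to 0.061). In HCC70 its groups overlapped, at 112, 96.4 and 96.1 TPM against 98.2, 89.6 and 108 TPM. The log2 fold change there was -0.04, with a 95% interval of -0.25 to 0.16.

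CCND1, the cyclin D1 gene, is counted on exons of which 497 of 4761 bases are shared with LTO1 on the other strand. In Hs578T it was listed at 217, 216 and 214 TPM in non-BCSCs and at 230, 261 and 226 TPM in BCSCs. The groups did not overlap, but the log2 fold change of 0.14 had an adjusted p of 0.20 in limma and of 0.095 in edgeR, and DESeq2 called it higher (0.17, adjusted p = 0.028). In HCC70 the values were 96.1, 84.9 and 82.1 TPM against 80.0, 79.2 and 83.1 TPM, with overlap and a log2 fold change of -0.11 (adjusted p = 0.34, limma).

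CCND3, the cyclin D3 gene, was at 43.2, 42.7 and 44.4 TPM in Hs578T non-BCSCs and at 40.3, 39.6 and 40.1 TPM in BCSCs. In HCC70 it was at 63.1, 64.5 and 58.5 TPM against 54.3, 54.6 and 53.8 TPM. All 3 BCSC values lay below all 3 non-BCSC values in each line, by log2 fold changes of -0.12 and -0.19 (adjusted p = 0.14 and 0.098, limma), and DESeq2 called it lower in HCC70 (adjusted p = 0.040). CCND2 was listed at 0 in the Hs578T non-BCSCs and in the HCC70 BCSCs and reached at most 0.0358 TPM in any sorted library.

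Neither E-type cyclin was called by limma in either line, 0 passed at an unadjusted p under 0.05, and edgeR called 0, while DESeq2 called CCNE2 lower in HCC70 (-0.26, adjusted p = 0.046). CCNE1 was at 17.4, 17.5 and 17.4 TPM in Hs578T non-BCSCs and at 17.1, 15.2 and 17.8 TPM in BCSCs. In HCC70 it was at 23.7, 25.5 and 24.6 TPM against 22.9, 22.6 and 23.0 TPM, lower in every BCSC library by a log2 fold change of -0.10 (adjusted p = 0.30, limma). CCNE2 was at 55.0, 51.6 and 48.3 TPM against 53.4, 51.4 and 50.6 TPM in Hs578T, and at 197, 160 and 158 TPM against 142, 136 and 162 TPM in HCC70. The groups overlapped in both lines, and the 95% interval of its log2 fold change was -0.13 to 0.14 in Hs578T and -0.46 to 0.01 in HCC70. Of the CCNE2 exon bases, 1633 of 4397 are shared with genes on the other strand, so its values are uncertain if reads were counted without strand. In all, the groups did not overlap for 7 of 9 members in Hs578T and 6 of 9 in HCC70, against 29.0% and 30.9% of all genes tested.

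**Figure D1:**
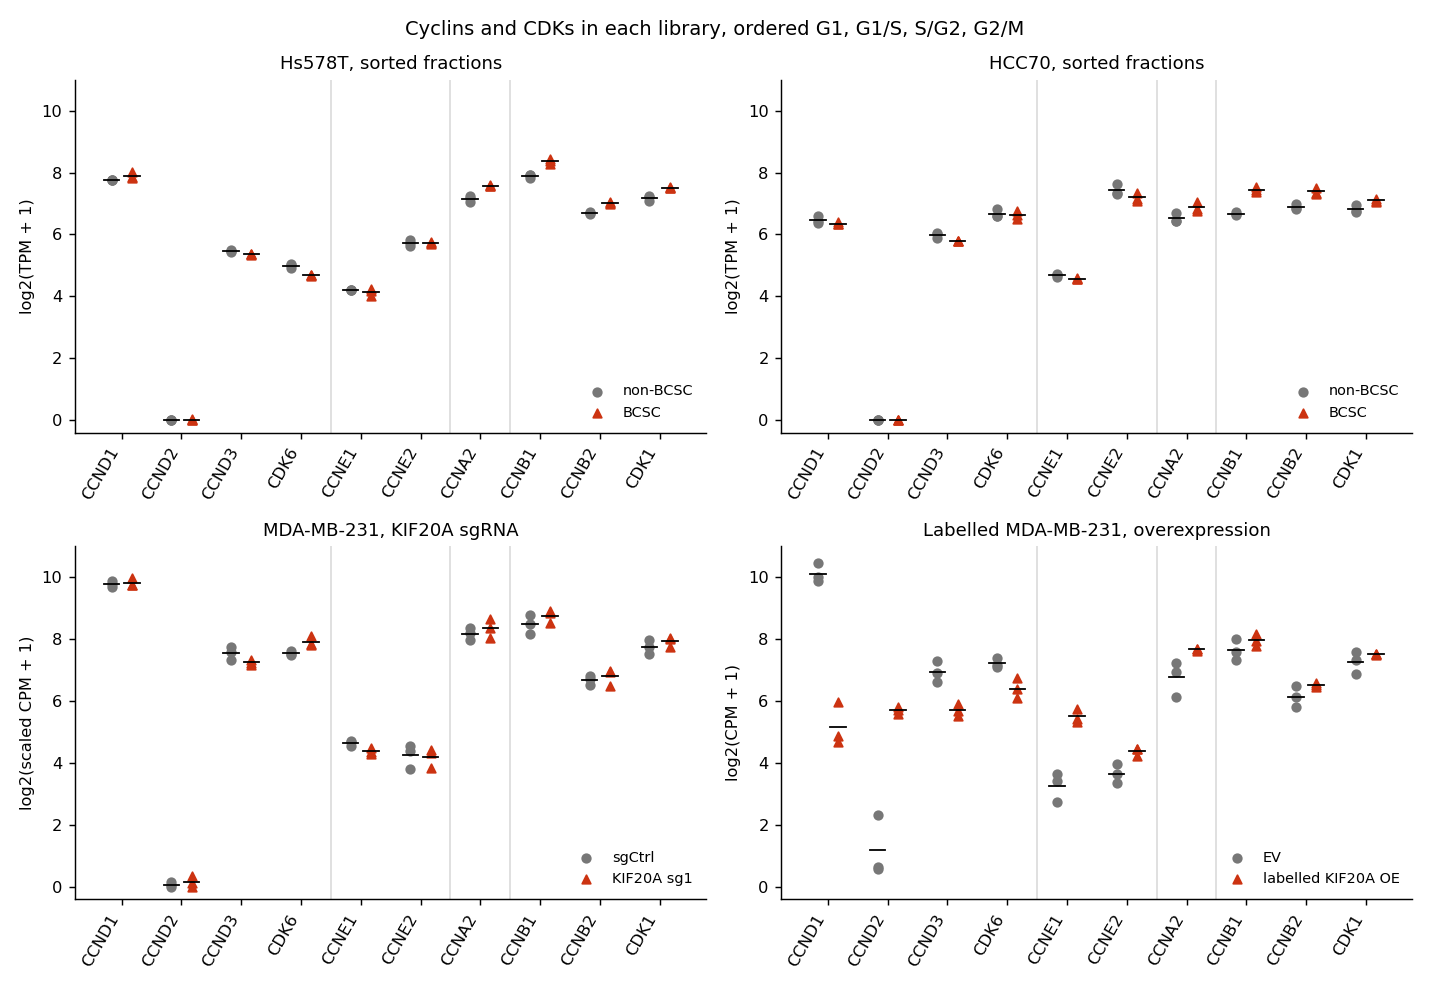
Each point is 1 library and each short line a group mean of 3, on the log2(value + 1) scale in the unit of each table, with genes ordered from G1 to G2/M and vertical lines between phase groups. In both sorted lines the BCSC points of CCNA2, CCNB1, CCNB2 and CDK1 sit above the non-BCSC points. In the last panel CCND1 lies far above CCND2 with EV, and the 2 genes lie at similar levels in the libraries labelled KIF20A OE.

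TPM is scaled by length, so levels of different genes can be ordered within a library. In both Hs578T fractions, CCNB1 was highest, followed by CCND1, and CCNE1 was the lowest above CCND2. Among Hs578T non-BCSCs, CDK1 and CCNA2, at 143 ± 8.27 and 142 ± 9.51 TPM (SD, n = 3), were the only neighbours in the order whose ranges overlapped. HCC70 non-BCSCs had another order. CCNE2 led at 172 ± 22.2 TPM, and CCNB2, CDK1, CDK6, CCNB1, CCNA2 and CCND1 followed with each range overlapping the next. In HCC70 BCSCs, CCNB1 came first at 173 ± 8.59 TPM, with ranges that overlapped in turn through CCNB2, CCNE2 and CDK1.

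As a share of the summed TPM of the 10 genes, the G2/M members took 48.6% to 49.3% in Hs578T non-BCSCs and 51.3% to 54.3% in BCSCs. In HCC70 they took 37.1% to 38.6% in non-BCSCs and 47.3% to 48.3% in BCSCs. The G1 share was 28.9% to 30.5% against 24.3% to 27.1% in Hs578T and 28.7% to 29.5% against 23.0% to 23.7% in HCC70. The summed G1 level itself overlapped between fractions, at 288 to 292 TPM against 291 to 326 TPM in Hs578T and 237 to 271 TPM against 223 to 245 TPM in HCC70. The G1/S share was 6.95% to 7.17% against 5.54% to 5.84% in Hs578T and 22.2% to 23.4% against 16.7% to 17.3% in HCC70. None of these ranges of shares overlapped within a line. The ratio of CCNB1 to CCND1 was 1.09 ± 0.0321 in Hs578T non-BCSCs and 1.38 ± 0.186 in BCSCs, and 1.15 ± 0.0556 and 2.14 ± 0.0518 in HCC70 (SD, n = 3). The sum itself was 945 to 1011 TPM against 1199.8 to 1206 TPM in Hs578T, and its HCC70 ranges, 823 to 945 TPM and 947 to 1065 TPM, lay just apart. These shares follow from the member values above and carry no test.

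**Figure D2:**
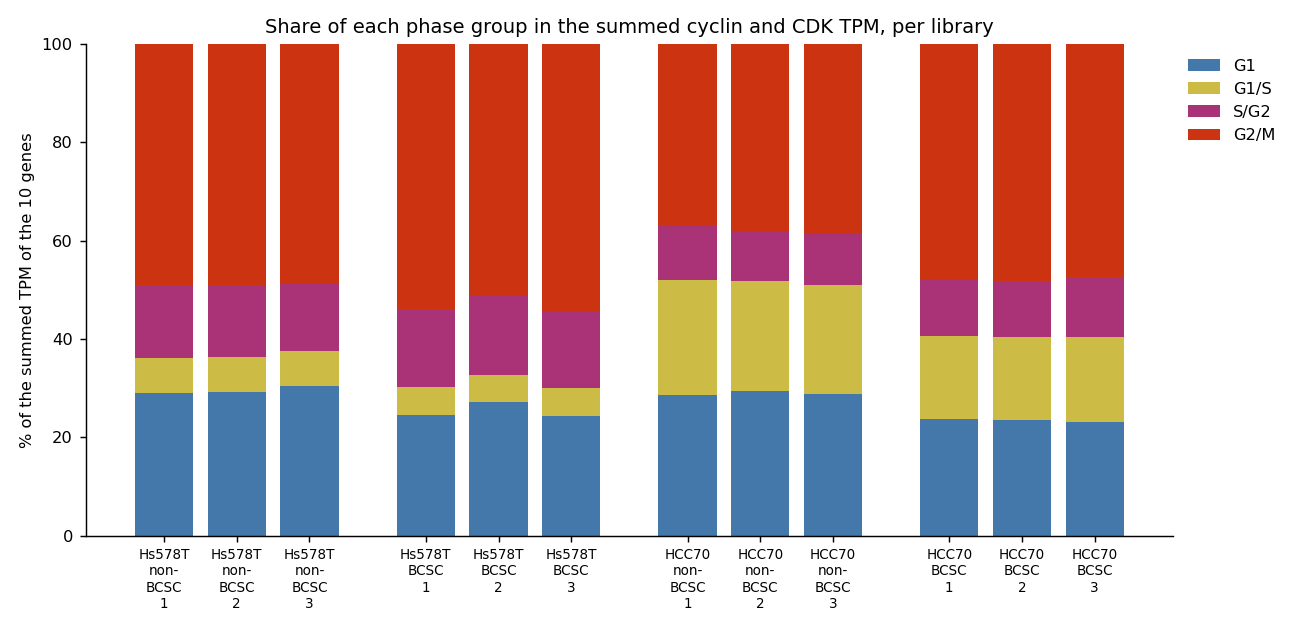
Each bar is 1 sorted library, split into the percentage of the summed TPM of the 10 genes held by the G1, G1/S, S/G2 and G2/M groups. The G2/M segment takes 37.1% to 38.6% of HCC70 non-BCSC bars and 47.3% to 48.3% of HCC70 BCSC bars, and the G1/S segment is wider in HCC70 than in Hs578T.

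The BCSC difference was compared between the lines in 1 model of the 12 sorted libraries. The difference of CCNB1 was larger in HCC70 by 0.31 on the log2 scale (SE 0.08, adjusted p = 0.043, limma), and it was the only member called of 9 tested, where 7.11% of 11668 genes were called. That call was lost when any of 9 of the 12 libraries was left out (adjusted p up to 0.11) and with the replicate number as a block. CDK6 had an interaction of 0.27 (adjusted p = 0.13) and CCND1 one of -0.26 (adjusted p = 0.11), neither of which passed in limma. For CCNA2 and CDK1, the 95% intervals of the difference between lines were -0.32 to 0.20 and -0.25 to 0.13.

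Other genes of the pathway were read in 9 lists, given here by counts beside the median of all genes, -0.01 in Hs578T and 0.02 in HCC70. In the lists, here and below, rose and fell mean called higher or lower by limma. Of all genes tested, limma called 7.15% in Hs578T and 2.83% in HCC70, edgeR 12.4% and 5.12%, and DESeq2 10.7% and 8.98%. At an unadjusted p under 0.05 in limma, 22.5% and 23.7% passed. All 15 markers of the G2/M phase had a positive log2 fold change in both lines. Of them, limma called 13 higher in Hs578T and 15 in HCC70, with list medians of 0.31 and 0.56. The leading ones were NEK2 (0.47), HMMR (0.42) and PLK1 (0.41) in Hs578T and PLK1 (0.81), AURKA (0.77) and CENPF (0.70) in HCC70, that is, mitotic kinases, a spindle protein and a kinetochore protein. HMMR and NEK2 were also picked by the study from these libraries and kept after RT-qPCR. Of 15 S phase genes, such as the MCM helicase subunits and PCNA, 0 were called in either line, with medians of 0.06 and -0.07 and a range of -0.08 to 0.14 in Hs578T and -0.47 to 0.28 in HCC70. At an unadjusted p under 0.05, 2 of them passed in Hs578T and 4 in HCC70, and edgeR and DESeq2 each called 3 in Hs578T, all higher, and 2 in HCC70, both lower. In the test of the difference between lines, 5 of the 15 G2/M phase genes were called, all larger in HCC70 (MKI67 0.41, PLK1 0.40, CENPF 0.38, BUB1 0.37, AURKA 0.36), and 0 of the 15 S phase genes. The summed level of the S phase genes was 2198 to 2269 TPM in Hs578T non-BCSCs and 2331 to 2392 TPM in BCSCs, and its HCC70 ranges, 2021 to 2213 TPM and 2035 to 2097 TPM, overlapped.

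**Figure D3:**
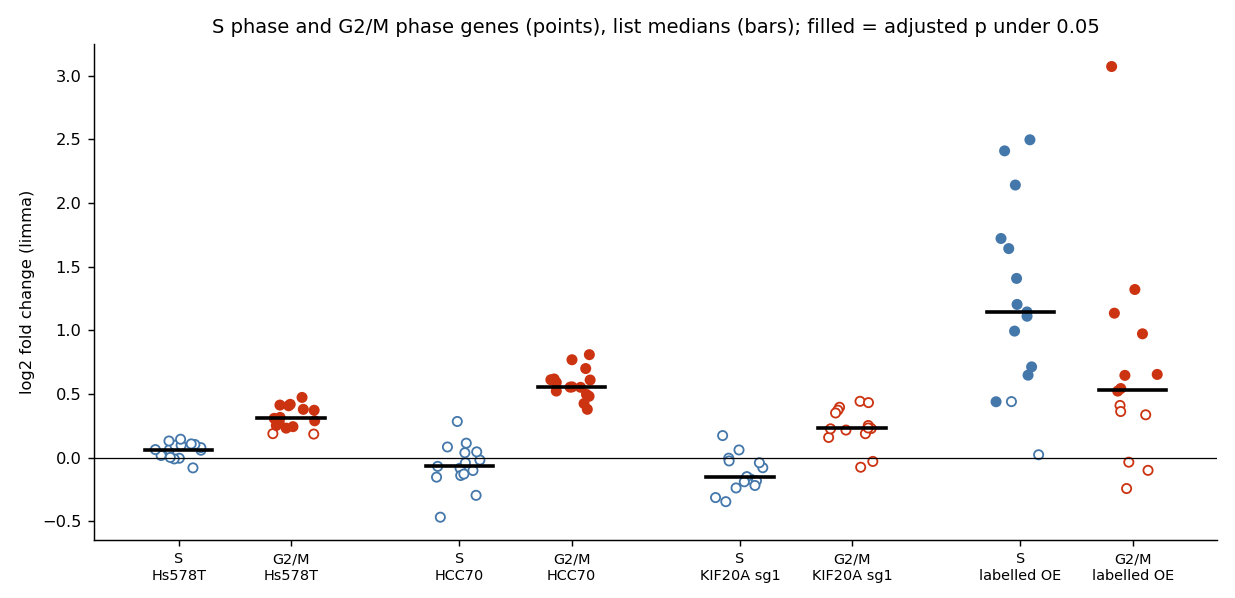
Each point is the limma log2 fold change of 1 gene of the S phase or G2/M phase list in 1 comparison, each bar the list median, and filled points passed an adjusted p under 0.05. In the sorted lines the G2/M medians are 0.31 and 0.56 while the S phase medians are 0.06 and -0.07, and for the labelled OE libraries the S phase median of 1.14 is above the G2/M median of 0.53.

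Among 7 genes of the CDK1 switch, limma called the same 3 higher in each line. CDC25C, CKS2 and CDC25B rose by 0.32, 0.30 and 0.22 on the log2 scale in Hs578T and by 0.59, 0.43 and 0.45 in HCC70. In Hs578T, edgeR added CKS1B as higher (0.21 in limma, adjusted p = 0.077). CDC25 phosphatases remove the inhibitory phosphates from CDK1, and CKS2 is a small subunit of CDK complexes. WEE1 and PKMYT1, which place those phosphates, were not called in either line. Of 8 genes of cyclin degradation, UBE2C (0.43), CDC20 (0.35) and FZR1 (0.26) rose in Hs578T and CDC20 (0.73) and UBE2C (0.59) in HCC70, by limma. FBXW7 and SKP2, of the SCF ubiquitin ligases, stood at -0.22 and -0.18 on the log2 fold scale for Hs578T, where edgeR called both lower and DESeq2 FBXW7 alone, and DESeq2 called SKP2 lower in HCC70. CDC20 and FZR1 are activators of the anaphase-promoting complex, which marks B-type cyclins for destruction, and UBE2C is its ubiquitin-conjugating enzyme.

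Of 6 CDK inhibitor genes tested in Hs578T, limma called 4 higher: CDKN3 (0.30), CDKN1B (0.30), CDKN1A (0.30) and CDKN2D (0.21), the last not called by DESeq2. By limma 0 of 7 were called in HCC70, where 4 had an unadjusted p under 0.05 and edgeR called 2 and DESeq2 3, all higher, and no inhibitor was called in the test of the difference between lines. Of 10 genes of G2/M transcription, limma called FOXM1 alone in each line, higher by 0.27 and 0.53, and edgeR and DESeq2 added MYBL2 as higher in Hs578T (0.21 in limma, adjusted p = 0.12), and the genes of NF-Y (NFYA, NFYB, NFYC) were not called. Among 13 pocket protein and E2F genes, limma called E2F5 higher in Hs578T (0.33) and 0 in HCC70 (4 at an unadjusted p under 0.05, 0 by edgeR and 2 by DESeq2). In Hs578T, edgeR and DESeq2 added RBL1 as higher (0.16 in limma, adjusted p = 0.12). Of the other cell cycle cyclins and CDKs, CCNF alone was called, higher in both lines by 0.35 and 0.56. CDK2 and CDK4, the kinase partners of the E- and D-type cyclins, were not called in either. Of 22 cyclins and CDKs outside the cell cycle, such as CDK9 and CCNT1 of transcription elongation, CDK5 fell by 0.28 in Hs578T, a call not made by DESeq2, and 0 were called in HCC70 (4 at an unadjusted p under 0.05, 0 by edgeR and 2 by DESeq2). As counts of their lists, the single limma calls of FOXM1, E2F5 and CDK5 in Hs578T lie near the 7.15% of all genes called there.

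Markers of other cell types were read beside these results. Of 5 fibroblast, endothelial and leukocyte markers, 4 were in the Hs578T table and 3 were tested there. LUM and DCN fell in Hs578T BCSCs, from 360 to 411 TPM to 225 to 230 TPM and from 76.7 to 85.1 TPM to 38.7 to 45.5 TPM, and the summed list was at 440.0 to 499.7 TPM against 267 to 279 TPM. In HCC70 the same list summed to at most 0.348 TPM and the leukocyte marker PTPRC was at most 0.0245 TPM. The part of the LUM and DCN difference in the Hs578T results was not tested. The epithelial markers summed to 320 to 350 TPM in Hs578T non-BCSCs and 381 to 422 TPM in BCSCs, with 1 of 2 tested called (KRT18, 0.28) and KRT8 lower in every BCSC library without a call (-0.20, adjusted p = 0.17, limma), and to 5348 to 5905 TPM against 5693 to 5964 TPM in HCC70, with 0 of 5 called. By limma 0 mesenchymal markers and 0 hormone receptor or HER2 genes were called in either line, with 1 mesenchymal marker at an unadjusted p under 0.05 in Hs578T, where edgeR and DESeq2 each called 1 (CDH2, higher).

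As a description, the genes most like the mean of CCNB1, CCNB2 and CDK1 over the 12 sorted libraries, each centred within its line, were ARL6IP1 (Pearson's r = 0.995), HMMR (0.992), TPX2 (0.989), KIF23 (0.988) and DLGAP5 (0.986), among 11659 genes ranked. By the same measure CCNA2 had r = 0.945, CCND1 0.0380, CCNE2 -0.317, CDK6 -0.434, CCNE1 -0.620 and CCND3 -0.898. The points share library, depth and the 2 fractions, so these values mostly carry the difference between fractions and no p is given.

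KIF20A sg1 was compared with sgCtrl in MDA-MB-231 cells. No member was called by limma at an adjusted p under 0.05, and no gene was, since 0.00% of 12852 genes passed. At an unadjusted p under 0.05, 2 of 9 members (CDK6 and CCND3) and 899 genes (7.00%) passed. By edgeR on recovered reads 0.00% of genes were called and by DESeq2 11 genes (0.0856%), with no member among them. CDK6 was at 185, 180 and 196 scaled CPM with sgCtrl and at 225, 231 and 272 with KIF20A sg1. The groups did not overlap, and the log2 fold change was 0.37 with a 95% interval of 0.10 to 0.64 (adjusted p = 0.69, limma). CCNE1 lay the other way, at 25.3, 22.5 and 24.7 scaled CPM against 19.4, 18.7 and 21.3, with an interval of -0.58 to 0.02. These were the only 2 of 9 members whose groups did not overlap, against 13.0% of all genes.

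The G2/M members varied between the replicates of sgCtrl more than between the groups. CCNB1 was at 290, 362 and 440 scaled CPM with sgCtrl and at 460, 484 and 365 with KIF20A sg1. For CCNB1, CCNB2, CDK1 and CCNA2 alike, sgCtrl replicate 1 was the lowest and replicate 3 the highest control, and KIF20A sg1 replicate 3 was the lowest of its group. The 95% intervals of the log2 fold change were -0.10 to 0.65 for CCNB1, -0.21 to 0.45 for CCNB2, -0.14 to 0.50 for CDK1 and -0.20 to 0.53 for CCNA2. A rise of 1.39-fold, as CCNB1 had in Hs578T BCSCs, lies within the first of these intervals, and a fall of that size lies outside it.

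CCND3 was at 191, 212 and 159 scaled CPM against 144, 162 and 150, with a log2 fold change of -0.29 (adjusted p = 0.69, limma). CCND1 was at 828, 875 and 945 against 859, 866 and 1012, with an interval of -0.26 to 0.35. CCNE2 was at 19.9, 13.0 and 22.6 against 13.3, 20.4 and 19.2. CCND2 had 0 to 12 reads in any of these libraries. In the pathway lists 0 genes were called, the G2/M phase median being 0.23 and the S phase median -0.15, beside 0.0023 over all genes. At an unadjusted p under 0.05, 4 of 14 G2/M phase genes and 2 of 15 S phase genes passed, and edgeR and DESeq2 called 0 of either list.

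**Figure D4:**
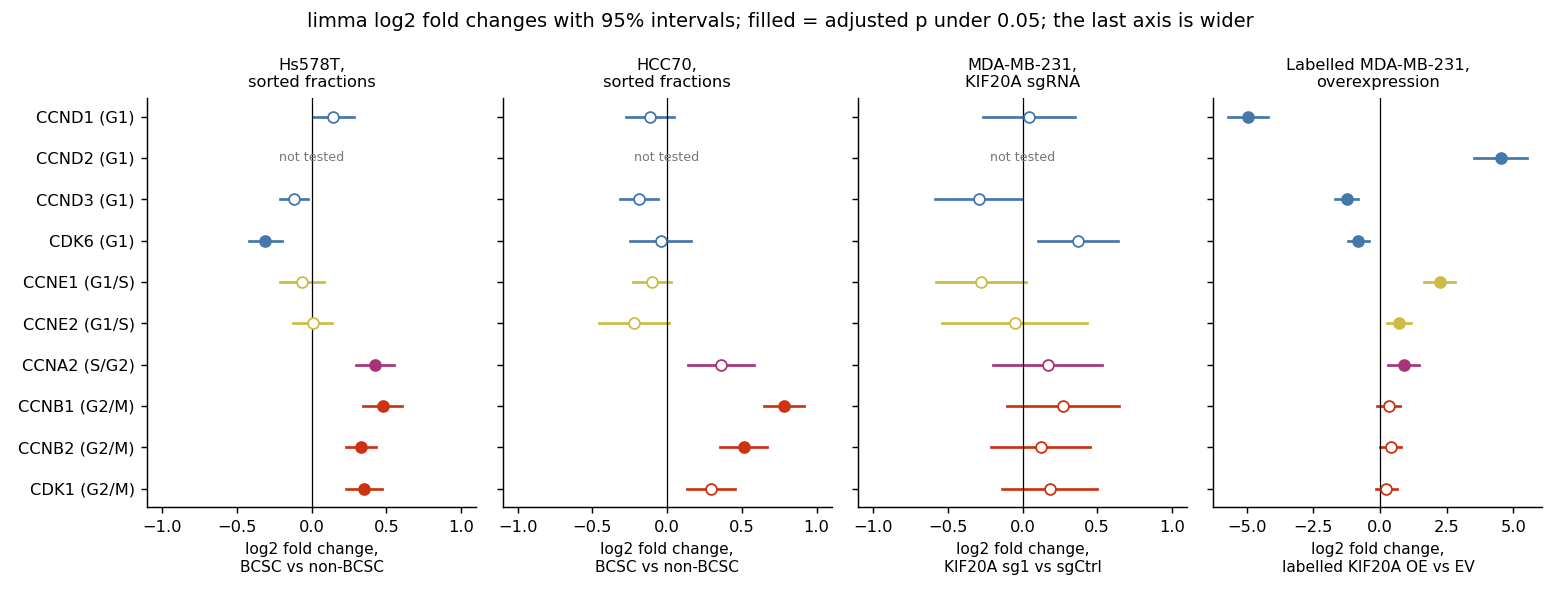
Points are limma log2 fold changes of each gene in the 4 comparisons, with 95% intervals, coloured by phase group and filled where the adjusted p was under 0.05. The last panel has a wider axis, on which CCND1 (-4.94) and CCND2 (4.52) lie at opposite ends, and all intervals of the KIF20A sg1 panel except those of CDK6 and CCND3 cross 0.

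In the libraries labelled KIF20A OE against EV, CCND1 and CCND2 differed most, in opposite directions, followed by CCNE1 and CCND3. Of 10 members, 7 were called by limma on log2(CPM + 1), 4 higher and 3 lower, where 69.7% of 15265 genes were called, 46.2% higher and 23.4% lower. The share of members called was thus that of all genes. Over all genes the log2 fold change had a median of 0.37 here and of 0.026 once values were scaled by the median of ratios, so fold changes on CPM stand about that much too high relative to the typical gene. On recovered reads, edgeR called 33.4% higher and 31.7% lower and DESeq2 34.3% and 32.5%. Groups did not overlap for 7 of 10 members, against 74.1% of all genes.

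CCND1 was at 934, 1032 and 1414 CPM with EV and at 28.3, 24.9 and 61.8 CPM in the other group. The mean was 29.4-fold lower, with a log2 fold change of -4.94 (SE 0.32, adjusted p = 4.1e-06, limma) and values down to -5.30 under the other settings. CCND2 (chr12:4269771-4305353, plus strand) was nearly absent with EV, at 12, 10 and 69 reads or 0.571, 0.483 and 4.06 CPM, and stood at 51.7, 46.7 and 55.6 CPM in the other group. Its mean was 30.1-fold higher, and the log2 fold change was 4.52 (SE 0.44, adjusted p = 3.9e-05, limma). Without EV replicate 3, the highest of its group, the mean was 97.4-fold higher and the log2 fold change 5.10. Of its 7988 exon bases, 999 lie in another gene of the same strand. Within a library, CCND1 exceeded CCND2 in CPM, which is not scaled by length, by 349- to 2135-fold with EV, and the ratio was 0.547, 0.533 and 1.11 in the libraries labelled KIF20A OE.

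CCND3 stood at 119, 98.3 and 157 CPM with EV and at 45.3, 49.9 and 58.9 CPM in the other group, a log2 fold change of -1.25 (SE 0.19, adjusted p = 0.00045, limma). CDK6 stood at 142, 166 and 138 CPM against 67.6, 106 and 82.7 CPM, a log2 fold change of -0.81 (SE 0.17, adjusted p = 0.0032, limma). In each gene the groups did not overlap, and both genes remained called under every scaling and with each library left out.

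CCNE1 was at 5.67, 9.81 and 11.5 CPM with EV and at 39.3, 53.1 and 42.0 CPM in the other group. The log2 fold change was 2.24 (SE 0.25, adjusted p = 9.2e-05, limma) and 1.89 after the median of ratios. CCNE2, at 9.19, 14.5 and 11.6 CPM against 20.9, 17.8 and 20.7 CPM, rose by 0.72 (adjusted p = 0.011, limma), and CCNA2, at 69.6, 123 and 150 CPM against 195, 206 and 207 CPM, by 0.89 (adjusted p = 0.012). These 2 calls were lost after the median of ratios, where the log2 fold changes were 0.38 and 0.53, and by edgeR and DESeq2.

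By limma, edgeR and DESeq2 0 of the 3 G2/M members were called, 1 had an unadjusted p under 0.05, and their groups overlapped. Calls appeared without EV replicate 2, for CCNB1 (0.51, adjusted p = 0.021, limma) and CCNB2 (0.57, adjusted p = 0.010), and with the replicate number as a block for CCNB1 (adjusted p = 0.045). CCNB1 was at 161, 256 and 190 CPM with EV and at 221, 286 and 246 CPM in the other group, a log2 fold change of 0.33 on CPM and -0.040 after the median of ratios. CDK1 was at 117, 193 and 160 CPM against 182, 181 and 183 CPM, a log2 fold change of 0.24 on CPM and -0.12 after the median of ratios. CCNB2 was at 54.9, 88.1 and 68.8 CPM against 87.8, 91.9 and 95.1 CPM, a log2 fold change of 0.40 (95% interval 0.0023 to 0.79, adjusted p = 0.068, limma). EV replicate 1 was the lowest library for all 3 and for CCNA2.

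The list counts are set beside the 46.2% of all genes called higher and 23.4% called lower. In the lists, 13 of 15 S phase genes rose, led by CDT1 (2.50), GINS2 (2.41) and MCM2 (2.14), with a median of 1.14, and 8 of 14 tested G2/M phase genes rose, led by HMMR (3.07), BIRC5 (1.32) and PLK1 (1.13), with a median of 0.53. Of 8 CDK inhibitor genes, 2 rose and 2 fell, where DESeq2 called 2 higher and 3 lower. CDKN2A (8.33) and CDKN2B (3.86), inhibitors of CDK4 and CDK6, rose. CDKN2D, of the same family, fell by 2.28, and CDKN1C was the other called lower (-1.41). In the CDK1 switch, 5 of 7 rose, with CDC25A (3.02), PKMYT1 (1.90) and CDC25C (0.91) ahead. Of 13 E2F and pocket protein genes, 6 rose and 1 fell, led by E2F2 (3.17), E2F7 (-1.62) and E2F1 (0.86). In G2/M transcription, 6 of 10 rose, led by MYBL2 (2.69), LIN9 (2.17) and RBBP4 (1.70), and in cyclin degradation 6 of 8, led by SKP2 (2.44), FBXO5 (1.44) and FBXW7 (0.83). Of the other cell cycle cyclins and CDKs, 4 of 8 rose and 2 fell, with CCNA1 (-2.57), CCNF (1.43) and CCNB3 (1.15) at the head, and of 22 outside the cell cycle 11 rose and 5 fell, with CDK18 (5.37), CDK16 (2.33) and CDK17 (-2.01) at the head. The counts called higher of 8 of 14 G2/M phase, 6 of 10 G2/M transcription and 6 of 13 E2F and pocket protein genes lie near the share of all genes. So do the counts among the other cell cycle cyclins and CDKs and outside the cell cycle, and the 2 of 8 CDK inhibitors called lower. These counts moved with the scaling. Over all genes, edgeR called 33.4% higher and 31.7% lower. Its counts below for G2/M transcription and outside the cell cycle lie near these shares. By edgeR on recovered reads, 10 S phase genes were called, all higher, and 5 G2/M phase genes, 4 higher and 1 lower, with medians of 0.76 and 0.16. In the CDK1 switch edgeR called 2 higher and 1 lower, CDC25C being lost, and among the E2F and pocket protein genes 3 higher and 2 lower. It called 4 higher and 2 lower in G2/M transcription, 4 higher in cyclin degradation, 2 higher and 4 lower among the other cell cycle cyclins and CDKs, where CCNB3 was lost, and 8 higher and 8 lower outside the cell cycle. All of these stand beside the marker differences above: 4 of 4 epithelial and 4 of 4 mesenchymal markers tested were called, among them CD44 (-8.73), CDH2 (4.75), EPCAM (-2.88) and CDH1 (1.79). The part of these differences in the cyclin values was not tested.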

How the data were processed

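Poly-A RNA of 24 libraries was sequenced as stranded, paired-end libraries. The submitters' processing notes name HISAT2 2.0.5, featureCounts 1.5.0-p3 and GRCh38, and the strand setting of the counting is not given in the sources used here. The deposited Hs578T and HCC70 tables hold TPM, the deposited overexpression table holds CPM, and the deposited sgRNA table holds a signal, reads that the authors divided by 1 factor per library (scaled CPM). Per the file headers, 0 sample columns were left unused. Values were tested as log2(value + 1), where the mean over 6 libraries reached 1, by limma 3.58.1 in R 4.3.3 (trend, two-sided, Benjamini-Hochberg), each table alone, since tables were normalized separately, and in 1 model of the 12 sorted libraries for the difference between lines. The study's DESeq2 test on counts was not used as the main test because the tables hold normalized values.

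Whole reads were recovered (100% of values whole within 0.02 of a read in the MDA-MB-231 tables, 90.4% and 91.4% of genes in Hs578T and HCC70) for edgeR 4.0.16 and DESeq2 1.42.0. Here edgeR called 0 to 65.1% of all genes over the comparisons. The other alternatives were a pseudocount of 0.1, no minimum, a minimum of 10, the median of ratios, a replicate block and leaving out each library. On simulated data with 100 genes changed 2-fold, limma called 98, 98, 98 and 100 of them in Hs578T, HCC70, sgRNA and overexpression libraries, and with 1.5-fold 81, 90, 96 and 94. The simulation gave every experiment 1 fixed spread between replicates and changed only genes with ample reads. The real spread, relative to read sampling alone (chi-square per degree of freedom of replicate pairs), was 2.09 to 16.9 in the sorted lines. It was 41.0 to 147 in the sgRNA and 15.7 to 50.3 in the overexpression experiment, so the simulated counts do not give the power of the real tests. The 10 genes, the phase groups and the lists were chosen with earlier results of these data known. Named besides the 10 genes are up to 3 genes per list and comparison by absolute log2 fold change among those called, the 5 most alike, and label checks, and others were chosen after their values were seen. Positions and overlaps come from GENCODE 44 on GRCh38, promoters from RefSeq on GRCh38.p14. Python 3.11.15, numpy 2.4.6, pandas 2.3.3 and matplotlib 3.10.9 handled tables and figures.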

Additional observations from a re-analysis of the deposited data

Results flagged for a closer look

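The BCSC difference of CCNB1 was larger in HCC70 than in Hs578T by 0.31 on the log2 scale (SE 0.08, 95% interval 0.13 to 0.48, adjusted p = 0.043 from limma over the 12 sorted libraries), which marked it as a difference between the lines. All 3 BCSC libraries were above all 3 non-BCSC libraries in each line. Over the alternatives the adjusted p was 0.043 to 0.11, and cell line and batch cannot be told apart.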

How the results depend on the processing

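Over the alternatives, 5 to 6 members were called in Hs578T, 2 to 6 in HCC70, 0 in the sgRNA experiment, 5 to 8 in the overexpression experiment and 0 to 1 in the interaction. HCC70 had 2 by limma, 4 by edgeR and 6 by DESeq2 on recovered reads; the cause was not tested. With 1 library left out, the counts were 4 to 5, 1 to 3, 0 to 0, 7 to 9 and 0 to 1. The replicate numbers were not shown to pair the libraries, since correlations of same-numbered deviations were -0.161 to 0.185, and with them as a block the interaction had 0 called (CCNB1 0.31, adjusted p = 0.11, limma), the overexpression experiment 8. On CPM rescaled by the median of ratios, by edgeR and by DESeq2, CCNB1 in the libraries labelled KIF20A OE was at -0.040, -0.042 and -0.040 and CDK1 at -0.12, -0.13 and -0.13, against 0.33 and 0.24; by construction these settings centre the typical gene. With 1 library left out, log2 fold changes that crossed 0 ran from -0.041 to 0.052 for CCNE2 in Hs578T, -0.11 to 0.031 for CDK6 in HCC70, -0.032 to 0.095 for CCND1 and -0.28 to 0.13 for CCNE2 in the sgRNA experiment, and, in the interaction, -0.10 to 0.0051 for CCNE1, -0.14 to 0.023 for CCNA2 and -0.099 to 0.0068 for CDK1. None of these was called. With 3 libraries a group, an exact permutation test of 1 gene cannot go below p = 0.1. CCND2 was too low to test outside the overexpression experiment.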
